A study of Mus musculus with 48 samples.

Results

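Long intergenic noncoding RNAs (lincRNAs) on the mouse autosomes were described in single cells of the inner cell mass (ICM), the inner cells of the blastocyst. The genes were chosen by rule: gene type lincRNA in the GENCODE M21 annotation of GRCm38, a place on chromosomes 1 to 19, and 10 or more counts in 10 or more of 48 cells, leaving out the imprinted genes H19 and Meg3. The rule found 125 lincRNAs among 49671 genes in the count table. They are 3.57% of the 3506 autosomal lincRNA genes in the table, of which 2633 had no count in any cell and a further 748 had counts but did not reach the threshold. For comparison, 9246 of 20590 autosomal protein-coding genes (44.9%) passed the same threshold. Of the excluded genes, H19 reached 10 counts in 0 cells and Meg3 in 20.

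lincRNAs are transcribed, spliced and polyadenylated much like messenger RNAs but lie between coding genes and are not known to encode proteins. They are typically made at low levels and in few cell types. Some act in the nucleus on chromatin or splicing, some bind proteins or microRNAs in the cytoplasm, some serve as host transcripts from which small nucleolar RNAs (snoRNAs) or microRNAs are cut, and for others only the act of transcription beside a coding gene is known to matter. In pluripotent cells, several were found by their fall during differentiation or by knockdown, and the Platr (pluripotency-associated transcript) genes carry that history in their name.

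Cells came from the ICMs of 3 blastocysts at E3.75 from natural matings of PDGFRa::H2B-GFP/+ mice, in which a histone fused to green fluorescent protein is expressed from the Pdgfra locus, with F1 hybrids (C57BL/6JxCBA/J). GFP-positive embryos were chosen, the trophectoderm was removed by immunosurgery, and no treatment was given. Libraries were made by Smart-seq2, an oligo-dT primed full-length cDNA method that keeps neither strand nor molecular identifiers. At this stage precursors of the epiblast (pEPI) and of the primitive endoderm (pPrE) are intermingled in the ICM. Both groups used here share stage, cross, reporter allele and handling. The 25 pEPI and 23 pPrE cells are the branches of the study's dendrogram, read by eye, which was itself built from the expression of these cells. Cells carry the name of a well (letters A to F, 8 wells to a letter), and the embryo of origin is not in the labels. The 48 cells were therefore treated as 1 sample: differences between the branches are descriptions, SDs give the spread between cells, no test was made, and embryo, letter and branch can be told apart only in part.

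Total counts ranged from 1718970 to 7342785 per cell (median 4017083), between 9202 and 11547 genes were detected, and the mitochondrial share was 4.48% to 9.82%. Levels are given as FPKM, which are counts scaled by exon length and by library size. The branches carried their markers: 12 of 14 pPrE markers were over 2-fold higher in pPrE and 5 of 12 pEPI markers over 2-fold higher in pEPI, with 0 in the other direction. Of 12 trophectoderm markers, 6 passed the count threshold, and their summed level ran from 15.96 to 219.4 FPKM in pEPI (median 74.7) and from 21.05 to 125.4 FPKM in pPrE (median 52.5), with 2 over 2-fold higher in pEPI; their part in the values below was not tested. Y-linked genes had 242 or more counts in 29 cells and at most 1 in the other 19. All wells of letters A, B and E held Y-linked counts, none of letter D did, and letters C and F held both kinds. Cells with Y-linked counts were 17 of 25 pEPI and 12 of 23 pPrE cells.

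The lincRNAs together took 0.277% to 1.23% of the counts of a cell, with a median of 0.682%. A single gene, Gm26917, held 70.9% of these counts and Gm10076 a further 5.39%. Without them the share fell to between 0.0963% and 0.256%, with a median of 0.168% in pEPI and 0.156% in pPrE. A cell had counts on 62 to 94 of the 125 lincRNAs, with a median of 71. Only 8 reached 10 counts in all 48 cells, and 65 did so in fewer than 20. Mean levels over the cells were above 10 FPKM for 35 lincRNAs and under 1 FPKM for 12, and the median lincRNA stood at 3.97 FPKM against 6.36 FPKM for the coding genes past the threshold. The lincRNAs were short, with a median exon length of 1619 bp against 4457 bp and 3 exons against 10, and 13 had a single exon. At the threshold, 4930546K05Rik, Gm17586 and Gm5784 were just inside, each with a tenth-highest count of 10, and Gdap10, Gm20005 and Gm21781 just outside with a tenth-highest count of 9.

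The highest level belonged to Gm26917 (chr17:39843013-39846341), a single-exon gene with a mean of 1440.3 ± 583 FPKM (SD, 48 cells). Its levels ran from 567 to 2591 FPKM with a median of 1487 in pEPI and from 266 to 2948 FPKM with a median of 1269.9 in pPrE, so the branches overlapped throughout. The gene ends 11 bp from the ribosomal RNA gene CT010467.1, and Gm42418 (mean 24.9 ± 8.49 FPKM), also among the 10 highest, lies with all of its 1831 bp inside CT010467.1 on the opposite strand. Ribosomal RNA is the RNA core of the ribosome and the most abundant RNA of a cell. Since the libraries keep no strand, reads of CT010467.1 and Gm42418 cannot be told apart. Leaving out genes at ribosomal RNA and copies of messenger RNAs, the next highest were Snhg6, Epb41l4aos and Platr26, with means of 65.1, 54.6 and 47.03 FPKM, then 3100003L05Rik at 29.1 FPKM and Gm39132 at 25.2 FPKM. These 5 did not behave alike across cells: Snhg6 had 10 or more counts in all 48 cells, whereas 3100003L05Rik reached 10 counts in 21 cells and Gm39132 in 17, each with a median of 0 FPKM.

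The other 3 of the 10 highest levels were of genes that are near-identical copies of abundant messenger RNAs. Gm10076 (mean 934 ± 242 FPKM) matched Rpl41, a protein of the large ribosomal subunit, at 99.5% identity over 383 bp. Gm26825 (mean 28.9 ± 15.3 FPKM) matched Hspa8, a constitutive Hsp70 chaperone, at 99.6% over 1940 bp, and Gm26619 (mean 40.6 ± 15.5 FPKM) matched Rps18, a protein of the small ribosomal subunit, at 99.1% over 542 bp. Gm26623, with a mean of 18.99 ± 4.68 FPKM, matched H2afz, the histone variant H2A.Z, at 97.5% over 708 bp. In Gm26825, Gm26619 and Gm26623 the matching stretch runs against the strand of the lincRNA, that is, the lincRNA is annotated antisense to a copy of the messenger RNA. The next lines show 60 bases of the coding sequence beside the stretch of the lincRNA, on the strand of the messenger RNA. They come from GRCm38 transcripts, and each is the aligned stretch of 60 coding bases with the most differences. They are printed because they show how few bases separate the reads of the 2 loci even there. Capitals mark the bases that differ.
Gm26825: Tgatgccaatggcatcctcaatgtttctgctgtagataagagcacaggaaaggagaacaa
Hspa8: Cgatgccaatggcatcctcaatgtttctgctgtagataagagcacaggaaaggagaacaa
Gm26619: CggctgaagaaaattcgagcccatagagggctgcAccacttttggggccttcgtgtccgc
Rps18: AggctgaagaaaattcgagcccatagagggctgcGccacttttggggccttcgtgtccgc
Gm26623: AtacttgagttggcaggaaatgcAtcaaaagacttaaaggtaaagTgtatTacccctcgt
H2afz: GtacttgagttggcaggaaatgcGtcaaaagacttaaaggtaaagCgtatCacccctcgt
Gm10076: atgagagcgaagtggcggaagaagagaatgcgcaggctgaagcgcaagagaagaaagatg
Rpl41: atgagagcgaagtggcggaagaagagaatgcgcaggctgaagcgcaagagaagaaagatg

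Within these 60 bases Gm26825 and Hspa8 differed at 1 base, Gm26619 and Rps18 at 2, Gm26623 and H2afz at 4, and Gm10076 and Rpl41 at 0. Of the 125 lincRNAs, 11 had over 50% of the bases of their longest transcript in copies elsewhere (95% identity or more over at least 100 bases), a further 25 had a shorter copy and 89 had none. The counts of these 11 are uncertain, because the counting could split reads between the loci, and how such reads were treated is not given in the sources used here. Exons of 36 lincRNAs overlapped an exon of another gene. Over the 48 cells, Gm10076 followed Rpl41 (Spearman rho 0.86) and Gm26623 followed H2afz (rho 0.76), while Gm26825 had a rho of -0.02 with Hspa8 and Gm26619 a rho of -0.48 with Rps18. These values pool cells with and without Y-linked counts, between which the levels of Gm26825, Gm26619 and Rps18 differed (below). No rho within either kind of cell is given, so they do not show whether the genes followed each other there. All are given as descriptions over cells of 3 embryos that share well letters.

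The lincRNAs that differed most between well letters were all of this kind. Over the 125 lincRNAs, a median of 11.4% of the variance of log2(FPKM + 1) lay between the 6 letters, against 11.9% over all genes past the threshold. The 4 highest shares were those of Gm26619 (60.9%), Gm7292 (58.9%), Gm10076 (53.2%) and Gm26825 (48.8%). The whole of Gm7292 is a copy, at 99.2% identity over 2537 bp, of a part of Norad (listed as 2900097C17Rik), a cytoplasmic lincRNA that binds Pumilio proteins and is known for its role in genome stability. In Gm7292, 10 or more counts were found in 16 of the 19 cells without Y-linked counts (84.2%, exact binomial 95% interval 60.4% to 96.6%) and in 0 of the 29 cells with them (exact interval 0% to 11.9%). These intervals cover counting error only, and cells of the same embryo are not independent draws. Its level ran from 0 to 12.2 FPKM in the former (median 3.64) and from 0 to 0.715 FPKM in the latter (median 0.105). The split held inside letters that mix both kinds of cell: in letter F all 5 cells without Y-linked counts had 10 or more counts and 0 of the 3 with them did, and in letter C the numbers were 4 of 6 and 0 of 2. Norad itself lay from 0 to 3.43 FPKM without Y-linked counts and from 0 to 6.26 FPKM with them, and its rho with Gm7292 was 0.02.

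Gm26619 and Rps18 moved in opposite directions between cells with and without Y-linked counts. Gm26619 ran from 33.01 to 81.9 FPKM (median 48.9) in cells with Y-linked counts and from 10.9 to 43.8 FPKM (median 25.2) in the others. Rps18 ran from 72.9 to 165 FPKM (median 107) in the former and from 205 to 464 FPKM (median 306) in the latter, so that the Rps18 ranges did not overlap. Inside each kind of cell this opposition was not seen at the extremes. Well F3 was lowest in both genes among cells with Y-linked counts, where Gm26619 was highest in A8 and Rps18 in B3. Among the others, D3 was highest and F7 lowest in both. Both genes are autosomal. Gm26825 gave a different split: all 29 cells with Y-linked counts lay at 21.8 FPKM or above. Of the other 19, 11 reached 10 counts, 1 of them (C5) with 18 counts at only 1.45 FPKM. In letter C the 6 cells without Y-linked counts lay between 0.357 and 1.45 FPKM, while the 2 with them lay at 41.99 and 46.4 FPKM. In letter D, which held no Y-linked counts, wells D1 to D3 lay between 0.267 and 1.26 FPKM and wells D4 to D8 between 32 and 42.7 FPKM. Gm10076 was alike with and without Y-linked counts (medians 866 and 918 FPKM) but had letter means from 696 FPKM in F to 1239 FPKM in D, and Rpl41 had its lowest and highest letter means in the same letters. The embryo of a cell is not labelled, and its part in these splits was not tested.

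**Figure D1:**
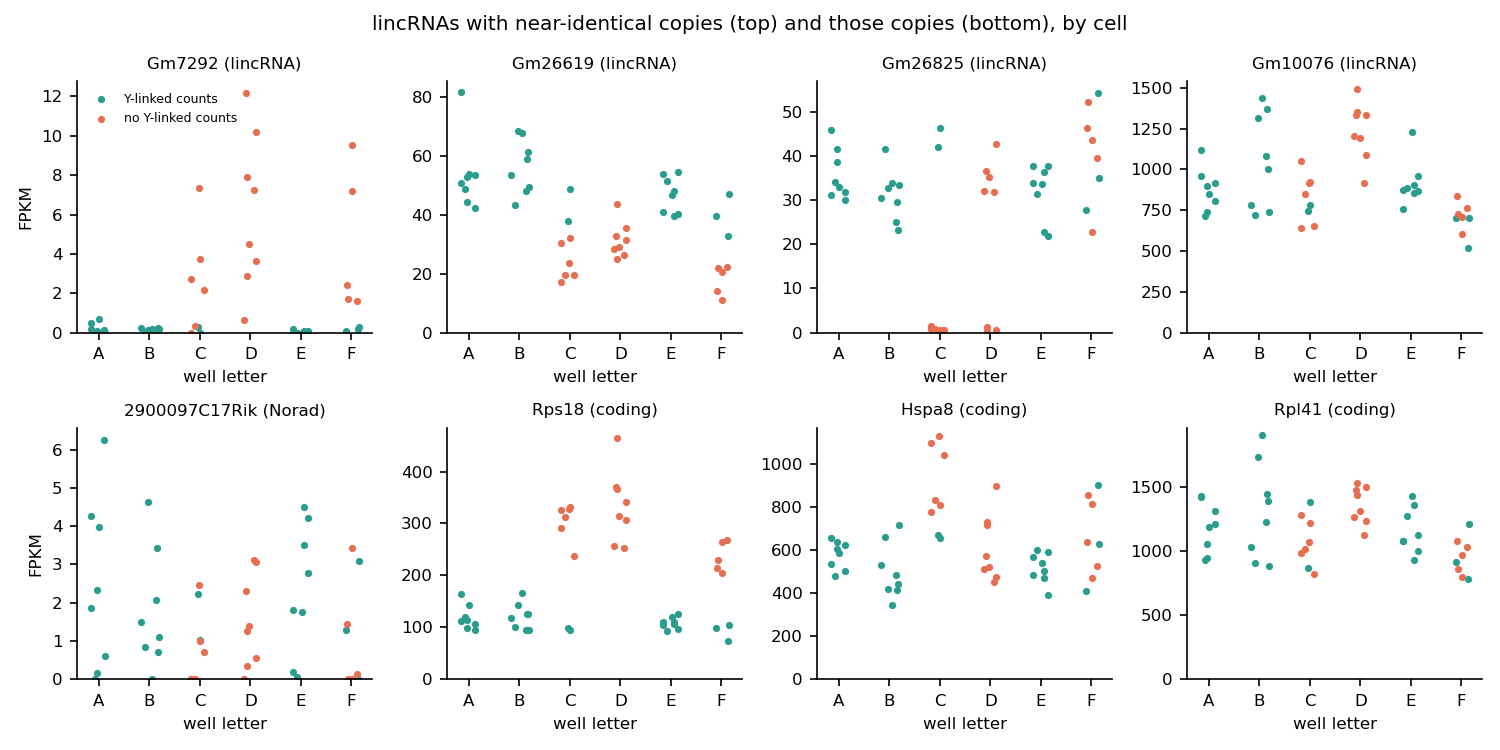
FPKM (linear axis) in each of the 48 cells by well letter for 4 lincRNAs with near-identical copies (top row) and for the copied gene (bottom row), each point being 1 cell coloured by the presence of Y-linked counts. Gm7292 is near 0 in all cells with Y-linked counts, and the low Gm26825 cells are in letters C and D. Gm26619 and Rps18 move in opposite directions between cells with and without Y-linked counts.

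snoRNAs guide the modification of ribosomal and spliceosomal RNA and are usually cut from the introns of host transcripts. Of 23 listed hosts 19 were in the table, 5 are annotated as autosomal lincRNA and all 5 passed the threshold. None of these 5 was past 2-fold between the branches, and their median log2 ratio was 0.19. Over all genes 7.78% were over 2-fold higher in pEPI and 5.83% in pPrE. Snhg6 (chr1:9941959-9944118), host of Snord87, ran from 22.3 to 145 FPKM with a median of 50.8 in pEPI and from 34.5 to 118 FPKM with a median of 57.7 in pPrE (log2 ratio of means, pPrE over pEPI, 0.15). Epb41l4aos ran from 0 to 99.7 FPKM with a median of 64.1 in pEPI and from 9.46 to 128 FPKM with a median of 55.3 in pPrE (log2 ratio 0.19). The branches overlapped almost fully in both. Snhg12, Snhg18 and Snhg20 were lower and patchier, at mean levels of 5.17, 4.04 and 4.80 FPKM, with 10 or more counts in 34, 19 and 34 cells. Snhg18 had a log2 ratio of 0.25 that became -0.12 without the wells of letter A and 1.77 without those of letter C. Snhg6 also overlaps an exon of Mcmdc2 on the other strand.

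Of 13 listed nuclear and genome-stability lincRNAs, 5 were among the 125, of which Neat1 alone was past 2-fold. Over all genes 7.78% were higher in pEPI and 5.83% in pPrE by that measure, and 5 genes are too few to set against these shares. Malat1 (chr19:5795690-5802672), an abundant nuclear-speckle RNA, was found in every cell and ran from 2.56 to 60.9 FPKM with a median of 22.5 in pEPI and from 6.34 to 44.3 FPKM with a median of 22.8 in pPrE. Its log2 ratio was 0.05, and it stayed between -0.04 and 0.14 without each letter. Its genomic neighbour Neat1, the scaffold RNA of paraspeckles, ran from 0 to 11.8 FPKM with a median of 1.44 in pEPI and from 0 to 4.77 FPKM with a median of 0.416 in pPrE (log2 ratio -1.05, -1.32 without the wells of letter D and -0.84 without those of letter F). Neat1 was higher in pEPI in 6 of 6 letters, with log2 ratios of -1.61 among cells with Y-linked counts and -0.21 among the others. Norad had a log2 ratio of 0.87 and was higher in pPrE in 5 of 6 letters. Lockd, transcribed downstream of the cell-cycle inhibitor gene Cdkn1b, had a log2 ratio of 0.94 against 0.19 for Cdkn1b, with a rho of 0.24 between them. Pvt1, the long neighbour of Myc, had a log2 ratio of -0.21.

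Mir17hg (chr14:115042879-115046727) was the only one of 12 listed microRNA hosts among the 125. Its transcript carries the miR-17-92 cluster, known for promoting proliferation and survival. Its levels ran from 0 to 23.7 FPKM with a median of 5.08 in pEPI and from 0 to 10.5 FPKM with a median of 0.308 in pPrE, with 10 or more counts in 20 of 25 pEPI and 9 of 23 pPrE cells. The log2 ratio was -1.35, -1.68 without the wells of letter E and -0.92 without those of letter C, and the host was higher in pEPI in 5 of 6 letters. What was counted is the host transcript; the mature microRNAs are too short for this method and were not measured. They are printed to show what the host encodes, from RefSeq on GRCm38.p6, with the seed (bases 2 to 8) in capitals and ordered by shared seed.
mmu-miR-17-5p: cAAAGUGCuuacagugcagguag
mmu-miR-20a-5p: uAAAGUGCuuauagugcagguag
mmu-miR-18a-5p: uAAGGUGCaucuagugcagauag
mmu-miR-19a-3p: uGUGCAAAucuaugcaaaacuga
mmu-miR-19b-3p: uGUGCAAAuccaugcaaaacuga
mmu-miR-92a-3p: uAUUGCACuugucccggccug

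The first pair share 1 seed, miR-19a and miR-19b share another, and the seed of miR-18a differs from the first at a single base.

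Among 37 listed pluripotency-linked transcripts, 21 are autosomal lincRNAs in the table and 9 passed the threshold: Lncenc1 and 8 Platr genes. Of these, 2 were over 2-fold higher in pEPI, 1 over 2-fold higher in pPrE, and 6 within 2-fold. The shares over all genes were 7.78% and 5.83%, and 9 genes are too few to set against them. Their median log2 ratio was 0.08 against 0.01 over all genes. Platr10 (chr3:75647446-75655731) ran from 0 to 49.6 FPKM with a median of 16.4 in pEPI and from 0 to 30.3 FPKM with a median of 5.61 in pPrE. The log2 ratio was -1.66 (-2.11 without the wells of letter A and -1.32 without those of letter C). Platr28 ran from 0 to 57.2 FPKM with a median of 11.5 in pEPI and from 0 to 24.8 FPKM with a median of 4.50 in pPrE, with a log2 ratio of -1.28 (-1.56 without the wells of letter E and -0.98 without those of letter D) and a higher pEPI mean in 6 of 6 letters. In both, the pPrE median lay well under that of pEPI, but cells with high levels occurred in each branch. Platr20 had a log2 ratio of 1.36 (0.91 without the wells of letter D and 1.89 without those of letter F), resting on 10 or more counts in 4 pEPI and 7 pPrE cells. Lncenc1, an embryonic stem cell transcript linked to naive pluripotency, ran from 5.70 to 42.3 FPKM with a median of 16.8 in pEPI and from 6.57 to 64.2 FPKM with a median of 22.6 in pPrE. It had 10 or more counts in all 48 cells and a higher pPrE mean in 6 of 6 letters, at a log2 ratio of 0.63 (0.51 to 0.79 without each letter), short of 2-fold. Platr26 reached 10 counts in 43 cells at a log2 ratio of 0.08, and Platr3, Platr4, Platr5 and Platr27 had ratios between -0.29 and 0.37. None of the 8 listed imprinted transcripts is among the 125, since H19 and Meg3 were left out and the others did not pass or are not annotated as lincRNA.

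Between the branches, 25 of the 125 lincRNAs (20%) were over 2-fold higher in pEPI and 10 (8.0%) over 2-fold higher in pPrE, on the ratio of mean normalised counts. Over all 10614 genes past the threshold the shares were 7.78% and 5.83%. The branches were built from these cells, so these counts are descriptions. The pPrE count moved by over 1.5 times under some groupings of the cells: 26 lincRNAs were higher in pEPI and 16 in pPrE without the wells of letter E (8.62% and 7.18% of all genes), 23 and 16 when cells were grouped by the first principal component of coding genes (7.67% and 6.67%), and 36 and 23 of 124 among the 19 cells without Y-linked counts (11.8% and 12.8%). The median log2 ratio was -0.07 against 0.01 over all genes. Among coding genes the share past 2-fold was larger at lower levels, so the lincRNAs were also set against coding genes in the ranges of level given by their own quartiles. Between the quartiles of the lincRNAs' level, 15.9% were higher in pEPI and 11.1% in pPrE, against 14.9% and 11.8% of coding genes at that level. Below the first quartile the shares were 25.8% and 9.68% against 17.9% and 18.9% of coding genes. Above the third quartile, 7 of 31 lincRNAs (22.6%) were higher in pEPI and 0 in pPrE, against 4.97% and 3.45% of coding genes, but this range has no upper limit and the coding genes in it were higher, at a median of 49.1 normalised CPM against 27.2.

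Asking for 2-fold also without each letter in turn left 11 lincRNAs (8.8%) on the pEPI side against 4.51% of all genes, and 7 (5.6%) on the pPrE side against 3.47%. At 4-fold, 4 lincRNAs (3.2%) were higher in pEPI against 1.90% of all genes and 1 (0.8%) in pPrE against 1.52%. At 1.5-fold, 34 (27.2%) were higher in pEPI against 15.5% and 20 (16%) in pPrE against 12.7%. On the pEPI side 23 of 25 kept their direction without each letter, the exceptions being 9130204K15Rik and Gm26901, and on the pPrE side all 10 did. This check and the next reuse the cells that gave the ratios, so neither is independent support. The shares of all genes past 2-fold that keep their direction are not given. Of the 35 past 2-fold, 28 kept their sign, though not always 2-fold, both in cells with and in cells without Y-linked counts. The others were Gm26760, Gm26806, 9130204K15Rik, Gm26901, Gm32468 and 1700042G15Rik, and Gm4926, which was at or under 3 counts in each branch of the latter. With the difference of mean log2(FPKM + 1) in place of the ratio of means, the counts past 2-fold were 11 for pEPI and 3 for pPrE, against 3.69% and 2.62% of all genes. The level ranges of the branches overlapped for all 125 lincRNAs. The same count over all genes is not given, so the overlap is not read as a trait of the lincRNAs.

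**Figure D2:**
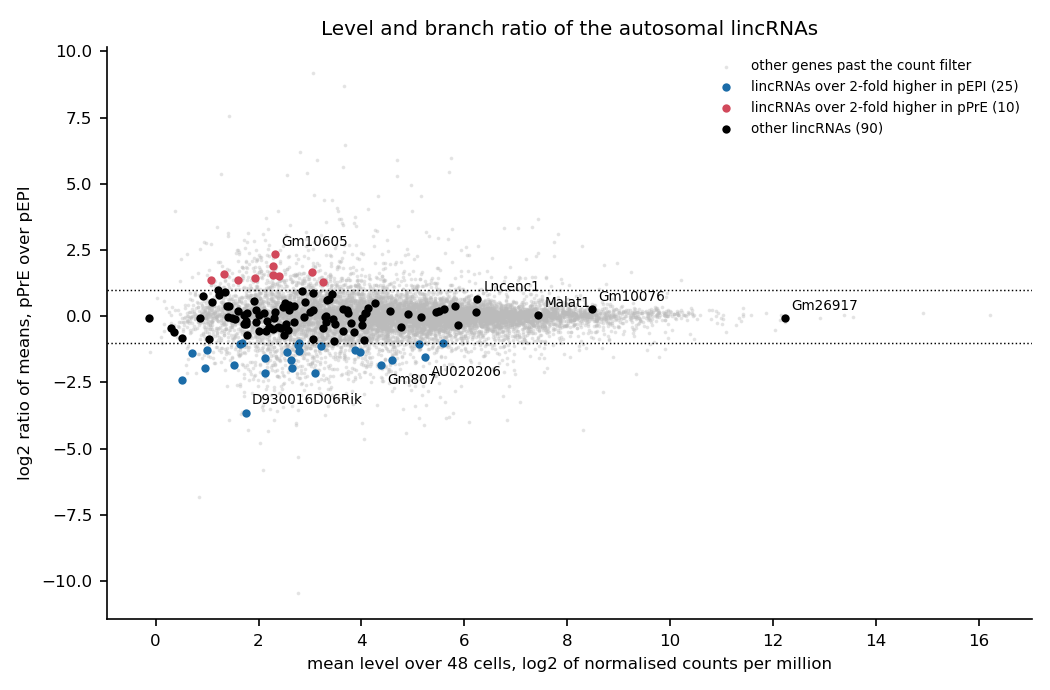
Log2 ratio of mean normalised counts, pPrE over pEPI, against the mean level over 48 cells (log2 of normalised CPM) for the 125 lincRNAs and all other genes past the count threshold (grey), with dotted lines at 2-fold. The 25 lincRNAs higher in pEPI include several of higher level, such as AU020206, while the 10 higher in pPrE lie at low levels.

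The 8 leading lincRNAs on the pEPI side had log2 ratios from -3.64 to -1.83. D930016D06Rik (chr5:104525735-104554207) ran from 0 to 7.82 FPKM with a median of 0 in pEPI and from 0 to 1.83 FPKM with a median of 0 in pPrE, a sum of 550 counts (95% interval 505 to 598) against 59 counts (95% interval 44.9 to 76.1). It had counts in 11 of 25 pEPI cells and 2 of 23 pPrE cells, of which 1 held 81.5% of the normalised pPrE counts. The log2 ratio was -3.64, and -3.07 without the wells of letter D. Both pPrE cells with counts are in letter F, so that without it pPrE was at 0, and a floor of 3 counts over the branch puts the ratio at or below -7.23. Over all cells the mean was higher in pEPI in 6 of 6 letters. Its nearest detected coding gene BC005561, 3124 bp away, had a log2 ratio of -0.46. 9830004L10Rik (chr1:80184719-80192073) was the most widely detected of the 8, with 10 or more counts in 18 pEPI and 6 pPrE cells. It ran from 0 to 21.9 FPKM with a median of 3.38 in pEPI and from 0 to 10.2 FPKM with a median of 0 in pPrE, with a log2 ratio of -2.13 (-2.52 without the wells of letter F and -1.69 without those of letter C). Cul3, a ubiquitin ligase scaffold and its nearest detected coding gene, had a log2 ratio of 0.48.

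Gm807 (chr13:99100706-99107580) had the highest level of the 8 and ran from 0 to 65.9 FPKM with a median of 11.2 in pEPI and from 0 to 35.7 FPKM with a median of 0 in pPrE, a sum of 3132 counts (95% interval 3023 to 3244) against 929 counts (95% interval 870.2 to 991). Its log2 ratio was -1.84 (-2.24 without the wells of letter D and -1.57 without those of letter C), negative in 6 of 6 letters. In pEPI, 10 cells were at 0 and the other 15 had 10 or more counts, and 9 pPrE cells had counts. Gm29040 also had a higher pEPI mean in 6 of 6 letters, running from 0 to 26.2 FPKM with a median of 0.175 in pEPI and from 0 to 8.42 FPKM with a median of 0 in pPrE (log2 ratio -2.15). The remaining leaders, Gm26760, Gm26806, 4833407H14Rik and Gm19705, had medians of 0 FPKM in both branches and 10 or more counts in 6 to 9 pEPI and 2 to 4 pPrE cells. Among cells without Y-linked counts Gm26760 and Gm26806 turned to log2 ratios of 0.55 and 0.57, and Gm26806 has 79.3% of its bases in copies, the closest in Gm26715. Leaving out letters moved Gm26760 to -3.86 without the wells of letter C and -2.11 without those of letter D, and Gm26806 to -3.35 without the wells of letter D and -1.32 without those of letter F. 4833407H14Rik became -2.78 without the wells of letter B and -1.59 without those of letter F, and Gm19705 -2.59 without the wells of letter B and -1.44 without those of letter F. The exons of 4833407H14Rik overlap those of the lincRNA Mirt1 on the opposite strand.

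AU020206 (chr7:75769038-75782099) is not among these 8 by size but was the most widely detected lincRNA over 2-fold higher in pEPI that the naming rule covers. It had 10 or more counts in 25 of 25 pEPI and 17 of 23 pPrE cells and ran from 1.06 to 51.9 FPKM with a median of 18.04 in pEPI and from 0 to 20.1 FPKM with a median of 2.60 in pPrE, a sum of 5483 counts (95% interval 5339 to 5630.1) against 1784 counts (95% interval 1702 to 1869). The log2 ratio was -1.54, it lay between -1.83 and -1.26 without each letter, and the mean was higher in pEPI in 6 of 6 letters and in cells with and without Y-linked counts (-1.35 and -1.74). Its neighbour Akap13, a kinase anchor protein 14.4 kb away, went the other way, with 0.420 ± 0.709 FPKM in pEPI and 1.21 ± 1.28 FPKM in pPrE (log2 ratio 1.53).

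On the pPrE side the 8 leading log2 ratios ran from 1.37 to 2.34. Gm10605 (chr7:99625936-99631711) ran from 0 to 5.90 FPKM with a median of 0 in pEPI and from 0 to 9.23 FPKM with a median of 0 in pPrE, a sum of 214 counts (95% interval 186 to 245) against 886 counts (95% interval 829 to 946). It reached 10 counts in 3 pEPI and 10 pPrE cells, and its log2 ratio of 2.34 became 1.82 without the wells of letter E and 3.59 without those of letter B. Its exons overlap Tpbgl on the opposite strand, from whose reads it cannot be told apart (Tpbgl log2 ratio 0.35). Gm35657 (chr9:41159424-41188862) overlaps the gene body of Ubash3b, a phosphatase gene with a log2 ratio of 3.44, without sharing exons. It ran from 0 to 15 FPKM with a median of 0 in pEPI and from 0 to 18.1 FPKM with a median of 1.59 in pPrE, with counts in 3 pEPI and 12 pPrE cells, a log2 ratio of 1.61 and a rho of 0.31 with Ubash3b.

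Gm13844 (chr6:31372895-31383877) had the highest pPrE level of the 8, running from 0 to 32.7 FPKM with a median of 0 in pEPI and from 0 to 29.03 FPKM with a median of 7.20 in pPrE. Its log2 ratio of 1.43 stayed between 1.18 and 1.73 without each letter, and the pPrE mean was higher in 6 of 6 letters. Gm26624 was found in similar numbers of cells in the branches (18 each with a count), but ran from 0 to 5.21 FPKM with a median of 0.307 in pEPI and from 0 to 18.8 FPKM with a median of 0.906 in pPrE (log2 ratio 1.67, 1.46 to 1.96 without each letter). It overlaps the gene body of the zinc finger gene Zfp991, whose log2 ratio was -0.88. Gm26640, BC002059 and Gm4926 reached 10 counts in 3 to 5 pEPI and 8 to 10 pPrE cells, with log2 ratios of 1.56, 1.53 and 1.37. Gm26640, which ends 100 bp from Tmsb10, became 1.12 without the wells of letter A and 2.24 without those of letter C, and Gm4926 became 0.95 without the wells of letter A and 2.31 without those of letter E. Gm4926 was at or under 3 counts in each branch among cells without Y-linked counts, so no ratio is given there. Gm7292, at a log2 ratio of 1.88, is the copy of Norad described above: 11 of the 19 cells without Y-linked counts are pPrE cells, and its ratio was 1.39 within them, 1.21 without the wells of letter D and 2.44 without those of letter C.

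The other lincRNAs past 2-fold were less extreme. On the pEPI side 11 that no rule named (Gm4675, 9130204K15Rik, Gm48215, Gm5113, 2410018L13Rik, 2700038G22Rik, AI427809, Gm32468, Gm11496, 1700042G15Rik and Gm20939) had log2 ratios from -1.65 to -1.004. Of these Gm20939 was the most widely detected, with 10 or more counts in 25 pEPI and 20 pPrE cells and log2 ratios of -1.06 and -0.76 in cells with and without Y-linked counts. Gm11496 had the next highest pEPI level, with 15.7 ± 21.3 FPKM in pEPI and 7.68 ± 8.62 FPKM in pPrE. On the pPrE side, 2400006E01Rik, beside Jade1, reached 10 counts in 11 pEPI and 16 pPrE cells and had the highest pPrE mean of the 10, at 15.8 ± 17.4 FPKM against 6.40 ± 11.4 FPKM in pEPI (log2 ratio 1.31). In Gm11496 and 2400006E01Rik the SD between cells exceeded the mean in each branch. 2410018L13Rik has 79.3% of its bases in copies elsewhere, so its counts are uncertain.

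**Figure D3:**
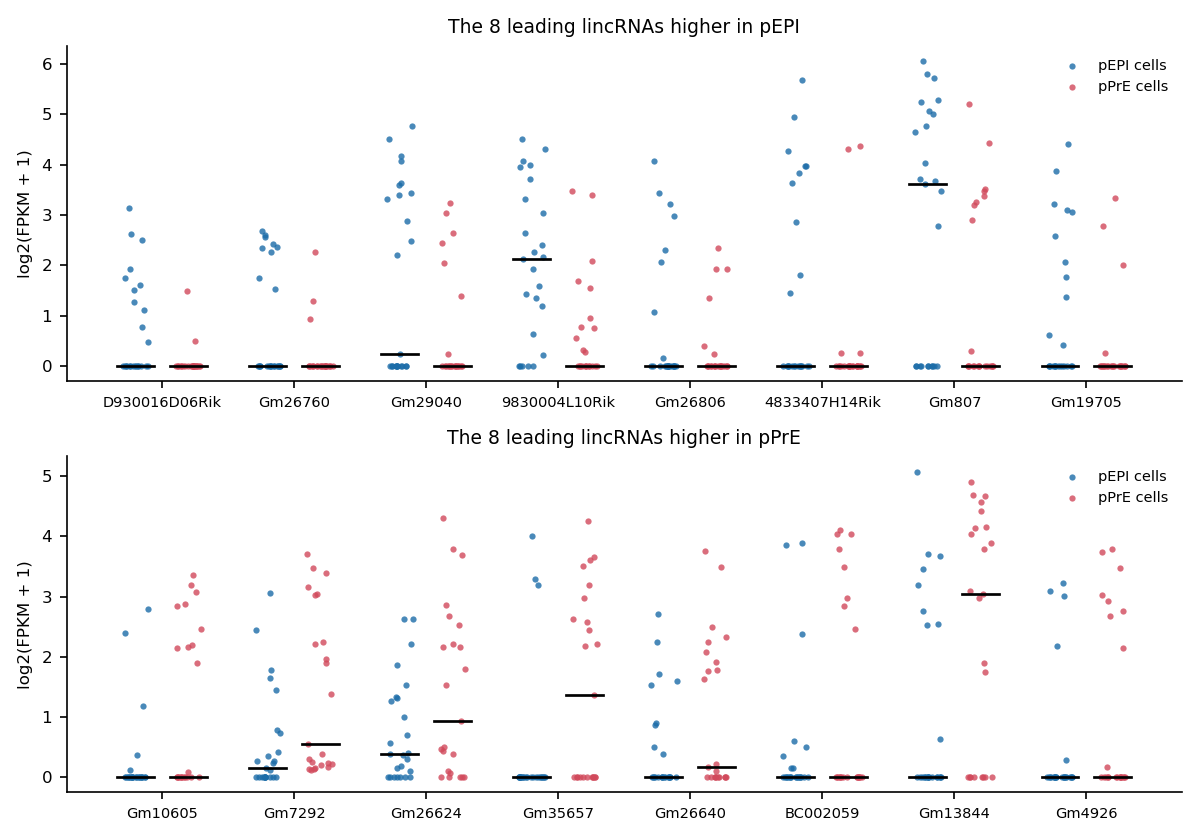
Log2(FPKM + 1) in each cell for the 8 leading lincRNAs on each side, with pEPI cells in blue, pPrE cells in red and black bars at the branch medians. All 16 have cells at 0 in pEPI and, Gm7292 apart, in pPrE, and the branches overlap for each of them.

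Promoter windows (250 bases before to 50 after the annotated start, RefSeq on GRCm38.p6) were at hand for 53 of the 125 lincRNAs, including 12 of the 25 higher in pEPI and 3 of the 10 higher in pPrE. Both strands were searched for the octamer ATGCAAAT bound by POU factors such as Pou5f1. They were also searched for AGATAA as a motif of Gata6 and its relatives, AACAAT as a core of SOX factor sites, CGGAAG as a core of ETS factor sites, and the core promoter elements CCAAT and TATAAA, none of which contains another. The octamer was in 5 of 53 lincRNA windows (9.43%) against 1.74% of all 32851 windows, in 3 of the 12 windows higher in pEPI and in 0 of the 3 higher in pPrE. Among the 5 are Gm20939 and Gm32856, whose windows are near-identical (below), so these are not separate finds. Gm20939 is also among the 3, at a log2 ratio of only -1.004. CGGAAG was in 32.1% against 16.9%, CCAAT in 43.4% against 37.4%, AACAAT in 7.55% against 10.7%, TATAAA in 11.3% against 13.6% and AGATAA in 3.77% against 11.2%. The lincRNA windows held a median of 10 CG dinucleotides against 7 over all windows, and CGGAAG contains one. A match is only a run of letters. The windows of the leading lincRNAs of either side for which one was at hand follow, with matches in capitals. Gm26760 is at chr15:92344109-92344408, 4833407H14Rik at chr19:53460372-53460671 and BC002059 at chr17:16951286-16951585, all on the plus strand.
Gm26760: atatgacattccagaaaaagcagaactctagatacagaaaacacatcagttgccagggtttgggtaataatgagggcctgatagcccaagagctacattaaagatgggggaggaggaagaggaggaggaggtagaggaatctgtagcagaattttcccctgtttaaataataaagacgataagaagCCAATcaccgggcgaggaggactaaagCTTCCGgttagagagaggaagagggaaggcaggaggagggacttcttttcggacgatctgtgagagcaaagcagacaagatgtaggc
4833407H14Rik: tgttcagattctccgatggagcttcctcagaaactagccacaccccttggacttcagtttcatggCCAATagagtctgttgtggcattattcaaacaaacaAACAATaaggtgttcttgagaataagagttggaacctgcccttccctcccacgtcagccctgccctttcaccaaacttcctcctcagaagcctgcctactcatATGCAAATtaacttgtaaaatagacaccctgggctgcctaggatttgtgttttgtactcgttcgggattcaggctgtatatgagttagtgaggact
BC002059: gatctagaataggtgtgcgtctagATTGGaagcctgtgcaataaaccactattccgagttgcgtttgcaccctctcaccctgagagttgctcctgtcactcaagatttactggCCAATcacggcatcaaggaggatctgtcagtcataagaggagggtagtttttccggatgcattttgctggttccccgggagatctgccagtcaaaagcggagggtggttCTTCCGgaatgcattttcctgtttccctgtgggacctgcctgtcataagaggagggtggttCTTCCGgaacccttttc

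Of these, the window of 4833407H14Rik holds the octamer, a SOX core and a CCAAT match. Some windows of different lincRNAs were almost the same sequence, and 2 such pairs, chosen after their values were seen, show how unlike the levels behind them can be. Gm20939 (window chr17:94864651-94864950) and Gm32856 (chr8:129263380-129263679) are 95.4% identical over the 283 bases that their windows share, on different chromosomes, and both hold the octamer. Gm6712 (chr17:17294193-17294492) matches BC002059 at 95.4% over 259 bases.
Gm20939: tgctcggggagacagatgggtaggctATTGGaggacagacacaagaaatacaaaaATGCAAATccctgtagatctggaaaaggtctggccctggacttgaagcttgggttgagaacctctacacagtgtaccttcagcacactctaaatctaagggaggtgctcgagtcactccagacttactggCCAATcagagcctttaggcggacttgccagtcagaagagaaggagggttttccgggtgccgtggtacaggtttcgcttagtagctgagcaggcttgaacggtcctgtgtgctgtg
Gm32856: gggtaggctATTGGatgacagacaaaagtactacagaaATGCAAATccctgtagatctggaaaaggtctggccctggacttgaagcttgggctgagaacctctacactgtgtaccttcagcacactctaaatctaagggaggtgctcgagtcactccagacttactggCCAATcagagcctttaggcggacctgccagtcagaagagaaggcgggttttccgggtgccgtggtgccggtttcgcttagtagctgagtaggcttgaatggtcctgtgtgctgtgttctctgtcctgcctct
Gm6712: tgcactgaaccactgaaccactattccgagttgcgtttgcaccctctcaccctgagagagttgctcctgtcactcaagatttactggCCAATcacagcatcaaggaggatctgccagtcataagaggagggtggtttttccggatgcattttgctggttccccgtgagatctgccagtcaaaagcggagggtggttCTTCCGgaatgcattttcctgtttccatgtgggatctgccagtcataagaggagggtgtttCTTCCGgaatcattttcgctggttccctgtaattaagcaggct

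Gm20939 had 16.7 ± 10.7 FPKM in pEPI and 8.34 ± 7.06 FPKM in pPrE (log2 ratio -1.004), with 10 or more counts in 45 cells. Gm32856 had 1.56 ± 2.67 and 1.51 ± 2.07 FPKM (log2 ratio -0.05), with 10 or more counts in 19 cells, and the rho between them over the 48 cells was 0.33. Against the log2 ratio of 1.53 for BC002059, Gm6712 stood at 0.22, with a rho of 0.05. Gm6712 has 99.2% of its bases in copies elsewhere, so its counts are uncertain. Counting each other, the windows of Gm20939 and Gm32856 resembled those of 41 and 56 genes. Some of these matches were looser, such as EU599041 at 73.6% and 75.8% identity.

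Cell-to-cell variation was measured by the squared coefficient of variation (CV squared), whose natural log was compared with a cubic curve on the mean level fitted through all 10614 genes, and the excess over that curve is given. The median excess was 0.43 over the lincRNAs against 0.08 over autosomal coding genes. Between the quartiles of the lincRNAs' level, where the median level was 6.02 normalised CPM for lincRNAs and 7.39 for coding genes, the median excess was 0.41 for lincRNAs and 0.40 for coding genes. The cubic curve runs under the genes of low level, and with a running median in its place the excess of the lincRNAs was 0.13. The largest excess was that of Gm26707 (2.89), which ran from 0 to 188 FPKM with a median of 0 in pEPI and from 0 to 91.5 FPKM with a median of 0.0503 in pPrE. A single cell, E4, held 42.97% of its normalised counts over all cells. Its exons overlap Cyp2s1 on the opposite strand. Gm26901, D230017M19Rik, Gm27010 and 2310015K22Rik followed, with excesses of 1.57, 1.48, 1.42 and 1.41, and each reached 10 counts in 10 to 13 cells. Gm26901 is one of the 25 over 2-fold higher in pEPI, where 1 cell held 51.3% of the normalised counts. Its log2 ratio of -1.28 became -1.80 without the wells of letter F and 0.52 without those of letter A, and was at least 3.44 among cells without Y-linked counts, where pEPI was at 0 and was set to a floor of 3 counts.

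**Figure D4:**
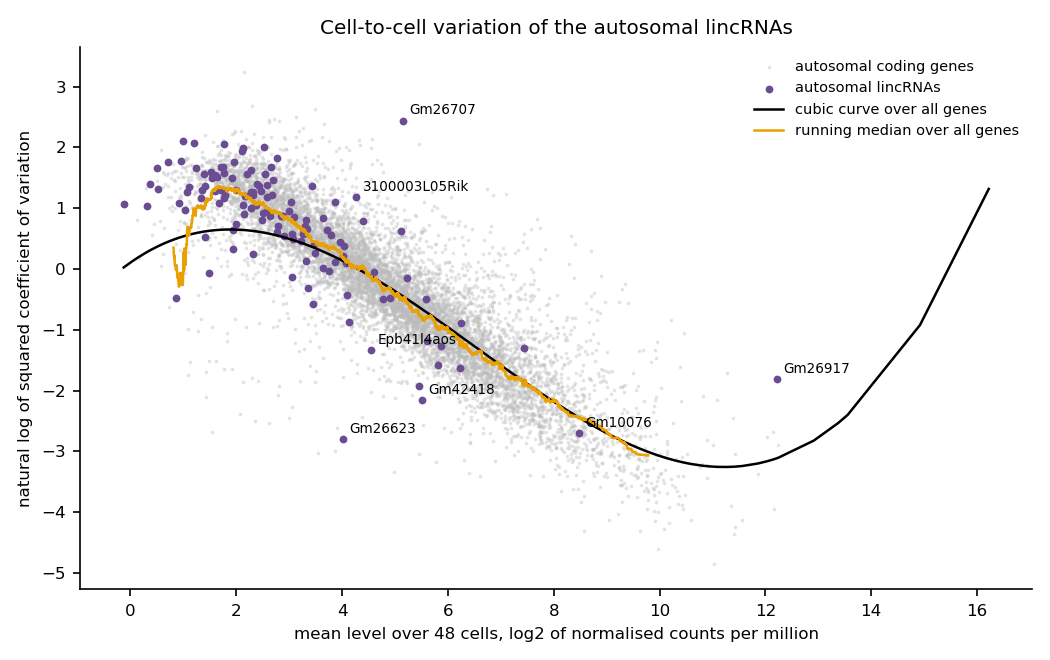
Natural log of CV squared over 48 cells against the mean level (log2 of normalised CPM) for the 125 lincRNAs and the autosomal coding genes (grey), with the cubic curve and a running median over all genes. The lincRNAs lie within the coding genes of their level, Gm26707 stands above them, and Gm26623, the H2afz copy, lies far below.

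Each lincRNA was paired with its nearest protein-coding gene past the same threshold, at a median distance of 31230 bp. The median Spearman rho over the 48 cells was 0.01, and 6 of 125 pairs (4.8%) had a rho above 0.3, against a median of 0.03 and 5.95% for coding genes paired in the same way. By distance, the median rho was 0.07 where gene bodies overlap (14 pairs), -0.02 at 1 to 5000 bp, 0.01 from there to 50000 bp and -0.01 beyond. In 9 lincRNAs that start divergently within 1000 bp of a coding gene the median rho was -0.06, against 0.04 for 759 coding genes in that arrangement. These are descriptions of sparse counts over cells that share embryos.

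The highest rho, 0.57, was that of Gm26819 with Med10, a Mediator subunit, whose exons it overlaps on the opposite strand, so that reads of the 2 cannot be told apart. Pvt1 and Myc, 47612 bp apart on the same strand, had a rho of 0.36. Their branch ratios differed, with a log2 ratio of -0.21 for Pvt1 (from 0 to 7.75 FPKM with a median of 0.0755 in pEPI and from 0 to 6.64 FPKM with a median of 0 in pPrE) and -1.37 for Myc. 3100003L05Rik with Kdm8, Gm39469 with Ppp2r3d and E130102H24Rik with Ak4 had a rho of 0.41, 0.38 and 0.33 at distances of 736, 140.5 and 62.5 kb. The lowest were AU020206 with Akap13 (-0.39), Gm14230 with the homeobox repressor gene Tgif2 (-0.33), which start 115 bp apart in opposite directions, and 1110019D14Rik with 2610001J05Rik (-0.26), 8 bp apart and also divergent. 1110019D14Rik had a log2 ratio of -0.89 and 2610001J05Rik of 0.78. Of the 35 lincRNAs past 2-fold, the neighbour was past 2-fold in the same direction in 3 (Gm35657 with Ubash3b, Gm4675 with Sox21, whose exons it overlaps on the opposite strand, and 2410018L13Rik with 9030624G23Rik, 1032918 bp away) and in the other direction in 2 (AU020206 with Akap13 and BC002059 with Zfp960), which were picked out after their values were seen. These shares, 8.57% and 5.71%, lie near those of the 1285 coding genes past 2-fold paired in the same way, 10.8% and 4.90%. The counts of 2410018L13Rik are uncertain, with 79.3% of its bases in copies elsewhere.

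**Figure D5:**
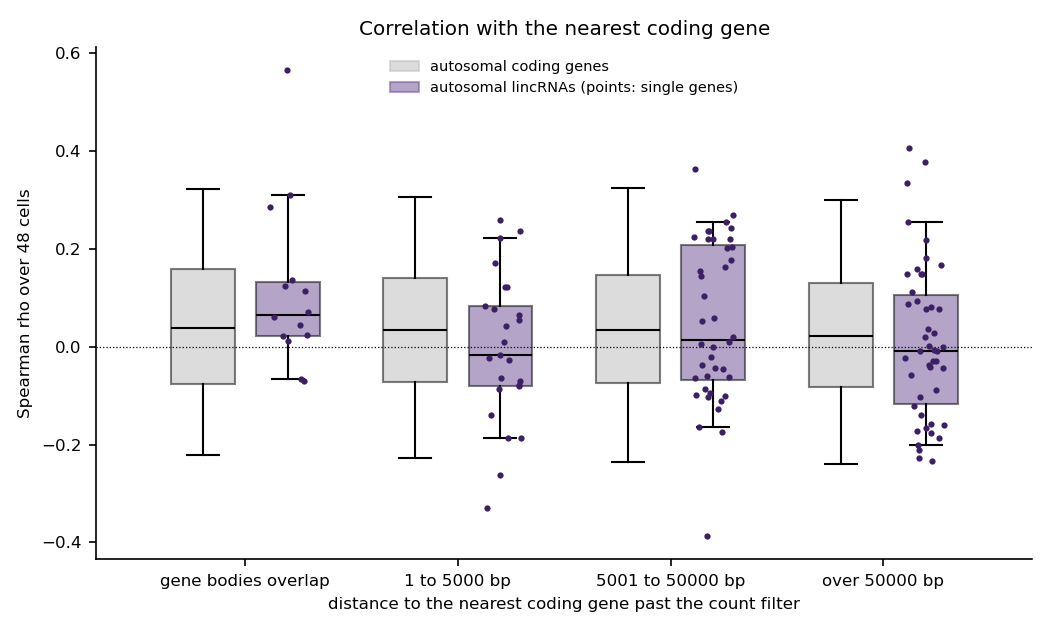
Spearman rho over 48 cells between each lincRNA (points and purple boxes) and its nearest coding gene past the count threshold, by distance between gene bodies, beside coding genes paired in the same way (grey boxes; boxes give quartiles, whiskers run from the fifth percentile to the 95 percent point). The lincRNA boxes span 0 except where gene bodies overlap (14 pairs), where the quartiles run from 0.02 to 0.13. The coding boxes span 0 at every distance, running from -0.08 to 0.16 where gene bodies overlap.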

How the data were processed

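Smart-seq2 libraries of 48 single ICM cells were analysed as 1 sample. The deposited values are raw counts per gene, which the authors made with htseq-count on Ensembl 87 genes and mm10; STAR and HTSeq are named in the submitters' processing notes, and the strand setting and the treatment of reads with several places are not given in the sources used here. Per the study's methods, libraries with few mapped reads, skewed gene-body coverage or an outlying PCA position had been removed.

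Genes were matched by identifier to GENCODE M21, which held 49326 of 49671; the other 345 held 0.0146% of the counts and were left out. FPKM used the union of exons and median-of-ratios library sizes. The log2 ratio is that of mean normalised counts, pPrE over pEPI, with a branch at 0 set to a floor of 3 counts and no ratio within a subset of cells where both branches were at or under it; past 2-fold was used as the call, and log values carried a pseudocount of 1. Summed counts have exact Poisson and shares exact binomial 95% intervals, which cover counting error only, because without molecular identifiers a molecule can be read many times. Copies were sought with BLAST 2.17.0 (identity of 95% or more over at least 100 bases). Cells with 100 or more counts over 4 Y-linked genes were taken as having Y-linked counts. The steps were tested on simulated data. Tools were SciPy 1.17.1, matplotlib 3.10.9, pandas 2.3.3 and NumPy 2.4.6 under Python 3.11.15.

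The lincRNAs and the lists were chosen with earlier results of these data known. Named were the 10 of highest level, the 8 of largest ratio on each side that keep direction without each well letter, the 5 of largest excess of variation, the 5 highest and 3 lowest rho with a neighbour, the 4 most variable between letters, those in the role lists, the 3 on each side of the threshold, and their neighbours; others named were picked after their values were seen. Alternatives covered the threshold, library size, thinning, well letters, Y-linked counts, summary, grouping and trend. Leaving out members with copies, the split within letters C and F, the ranges of level and the paired promoters were chosen after seeing the data.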

Additional observations from a re-analysis of the deposited data

How the results depend on the processing

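No paired analysis was possible because the 48 cells are 1 sample and no test was made. Requiring 10 counts in 20 cells left 60 lincRNAs, 12 past 2-fold higher in pEPI and 3 higher in pPrE, and in 5 cells 226, 62 and 29. The shares over all genes at these thresholds are not given, so these counts are not read against them. The difference of mean log2(FPKM + 1) gave 11 and 3, a fold of 4 gave 4 and 1, and a fold of 1.5 gave 20 higher in pPrE. Grouping by PC1 of coding genes gave 23 and 16, and cells without Y-linked counts gave 36 and 23. Without each well letter in turn, 20 to 31 were higher in pEPI and 9 to 16 in pPrE (16 without letter E, the only letter for which the shares over all genes are given). The median excess of ln CV squared, 0.43, was 0.21 after thinning, 0.13 with a running median, 0.33 in cells with Y-linked counts, 0.57 without lincRNAs that overlap other exons and 0.56 without those in copies, the last chosen after seeing the data. Without each letter it was 0.39 to 0.53, the median log2 ratio -0.17 to -0.04 and the median rho 0.01 to 0.04. Of 23 named lincRNAs past 2-fold, 20 kept their sign under all settings that gave a value, up to 14 each. The settings reuse the cells that gave the ratios, so this is not independent support. Gm4926 had too few counts in cells without Y-linked counts. Among cells without Y-linked counts Gm26760 turned to 0.55, Gm26806 to 0.57 and Gm26901 to at least 3.44, and Gm26901 also to 0.63 by PC1. Without each letter in turn Gm26901 ran from -1.80 to 0.52 (without letter A). The cause was not tested. Counts under 10 in most cells limit what can be said of any low lincRNA, and embryo and letter were not separable.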
